A study of Mus musculus with 20 samples.

Results

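*Tmem120a* and *Tmem120b* are paralogous genes on mouse chromosome 5. Both were followed, as gene sums and as single transcripts, in the inguinal subcutaneous white adipose tissue (iWAT) of 20 mice. They were picked by gene symbol, and are 2 of the 36611 genes and 12 of the 96533 transcripts quantified: *Tmem120a* has 4 annotated transcripts and *Tmem120b* has 8. All mice were females aged 6 months, labelled C57BL/6, and were fed for 15 weeks with food of 10.5% fat (LFD, low fat) or of 58% fat (HFD, high fat). Each group had 5 mice. Control mice carried *Tmem120a* fl/fl alleles without Cre and are labelled wild type. Knockout (*Ad-Tmem120a*-/-) mice carried the same alleles, in which exons 2 and 3 lie between loxP sites, together with Cre under the *Adipoq* promoter. That promoter is active in mature adipocytes, so other cells of the fat pad keep the gene, and only the knockout mice carry the Cre transgene. Per the study's methods the floxed line had a C57BL/6 N Tac and the Cre line a C57BL/6 J background, so the libraries come from a cross of both substrains. RNA of the whole tissue was depleted of ribosomal RNA, sequenced as stranded read pairs and quantified with Salmon, which gives each transcript an estimated count and a TPM, a level that is corrected for transcript length and scaled to a fixed total per library. Libraries held from 54605101 to 92387737 estimated counts.

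TMEM120A and TMEM120B are multi-pass membrane proteins of the nuclear envelope and endoplasmic reticulum. Per the paper, TMEM120A is a nuclear envelope transmembrane protein with high expression in adipose tissue. The fold of TMEM120A resembles that of the ELOVL enzymes that elongate fatty acids, and the protein binds coenzyme A. A role of TMEM120A as an ion channel has been proposed under the name TACAN and disputed. Binding of the nuclear envelope to the genome is the function for which the family has been studied in adipocytes.

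The gene models explain what each deposited transcript can report. Coordinates are those of the mouse assembly NCBIM37 (mm9). *Tmem120a* (ENSMUSG00000039886) lies on the minus strand at chr5:136211355-136220141, and *Tmem120b* (ENSMUSG00000054434) on the plus strand at chr5:123518424-123567758, 12.6 Mb away. The longest coding transcript of each gene, *Tmem120a*-001 (ENSMUST00000043378) and *Tmem120b*-001 (ENSMUST00000067505), has 12 exons, and 10 of them, exons 2 to 11, have the same lengths in both genes. They encode 343 and 339 codons. The floxed exons 2 (119 bases) and 3 (117 bases) of *Tmem120a* are coding exons. Both are shown beside their *Tmem120b* counterparts, 5′ to 3′ on the coding strand, because Salmon has to assign reads to one paralog or the other. Capitals mark bases that differ between the paralogs in this ungapped alignment. The bases were the same at 71 of 119 positions of exon 2 (59.7%) and at 66 of 117 positions of exon 3 (56.4%).
Tmem120a exon 2, chr5:136218151-136218269, minus strand: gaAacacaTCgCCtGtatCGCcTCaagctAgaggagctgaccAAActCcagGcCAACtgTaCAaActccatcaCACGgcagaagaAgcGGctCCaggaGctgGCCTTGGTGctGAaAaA
Tmem120b exon 2, chr5:123548184-123548302, plus strand: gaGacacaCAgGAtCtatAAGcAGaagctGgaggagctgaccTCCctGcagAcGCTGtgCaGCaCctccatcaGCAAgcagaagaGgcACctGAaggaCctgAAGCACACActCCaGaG
Tmem120a exon 3, chr5:136217836-136217952, minus strand: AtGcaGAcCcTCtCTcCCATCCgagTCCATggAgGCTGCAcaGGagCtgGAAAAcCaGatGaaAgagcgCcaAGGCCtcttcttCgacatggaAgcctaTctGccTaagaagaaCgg
Tmem120b exon 3, chr5:123549846-123549962, plus strand: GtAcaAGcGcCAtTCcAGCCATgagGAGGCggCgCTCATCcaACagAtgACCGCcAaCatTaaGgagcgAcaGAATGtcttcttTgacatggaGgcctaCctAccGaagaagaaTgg

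The longest run of bases shared by the main transcripts of both genes was 16, and no word of 31 bases was found in transcripts of both. Exons 2 and 3 of *Tmem120a* together hold 236 bases, which leaves a remainder of 2 after division by 3, so their loss shifts the reading frame. The joint of exon 1 to exon 4 is shown because no annotated transcript of *Tmem120a* holds exon 1 and lacks both floxed exons (0 of 4), and a read across it has no matching entry among the annotated transcripts. In the joined reading frame a stop, in capitals, follows after 46 codons, of which 27 lie wholly or partly in exon 1. No read crossing this joint can be counted from the deposited values. Reads from exons 4 to 12 of RNA with this joint match exons of *Tmem120a*-001. The level of *Tmem120a*-001 in knockout mice is therefore not a measure of RNA that holds the floxed exons.
Tmem120a exon 1 joined to exon 4, end of the coding part of exon 1, all of exon 4 and the start of exon 5: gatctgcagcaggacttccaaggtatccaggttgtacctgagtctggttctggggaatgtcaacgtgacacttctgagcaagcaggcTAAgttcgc

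The other transcripts of *Tmem120a* are a short coding model, *Tmem120a*-002 (ENSMUST00000153399, 358 bases), and retained intron models, *Tmem120a*-003 (ENSMUST00000127156, 785 bases) and *Tmem120a*-004 (ENSMUST00000141779, 679 bases). *Tmem120a*-004 starts in the intron before exon 8 and runs into exon 12. It shares 591 bases with *Tmem120a*-001 and holds neither floxed exon, and only the 88 bases at its start are intron. Its first exon is given because these 88 bases, in capitals, are its only sequence outside the exons of the full-length transcript.
Tmem120a-004, the first exon, chr5:136212311-136212460, minus strand: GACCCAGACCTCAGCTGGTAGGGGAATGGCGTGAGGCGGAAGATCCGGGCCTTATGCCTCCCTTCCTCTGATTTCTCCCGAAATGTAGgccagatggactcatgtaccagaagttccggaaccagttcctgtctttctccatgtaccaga

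The full-length transcript *Tmem120a*-001 was lower in knockout than in control mice on both diets, by about 2 units of log2(TPM + 1). Control libraries on LFD held 49.8, 66.8, 84.5, 129 and 80.8 TPM of it, against 20.4, 36.2, 26.5, 7.75 and 19.4 TPM in knockout libraries. Control libraries on HFD held 187, 109.0, 111, 79.4 and 93.6 TPM, against 31.7, 20.8, 18.9, 19.7 and 34.9 TPM in knockout libraries. The highest knockout library on each diet stayed below the lowest control library on that diet. The mean difference in log2(TPM + 1) was -1.93 on LFD and -2.14 on HFD (exact permutation test over 252 assignments, two-sided, p = 0.00794 on each diet, the smallest p that 5 mice against 5 can give). Over both diets the difference was -2.04 (exact permutation test, genotype exchanged within each diet, p = 3.15e-05, the smallest of this design). The knockout mean was 26.8% of the control mean on LFD and 21.7% on HFD. These levels are what Salmon assigned to *Tmem120a*-001. Reads of its other exons do not show whether the floxed exons were present, so the share of intact RNA was not tested. Of the transcripts that averaged 0.5 TPM or more, 0.202% were lower in all knockout than in all control libraries on LFD and 0.25% on HFD.

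**Figure D1:**
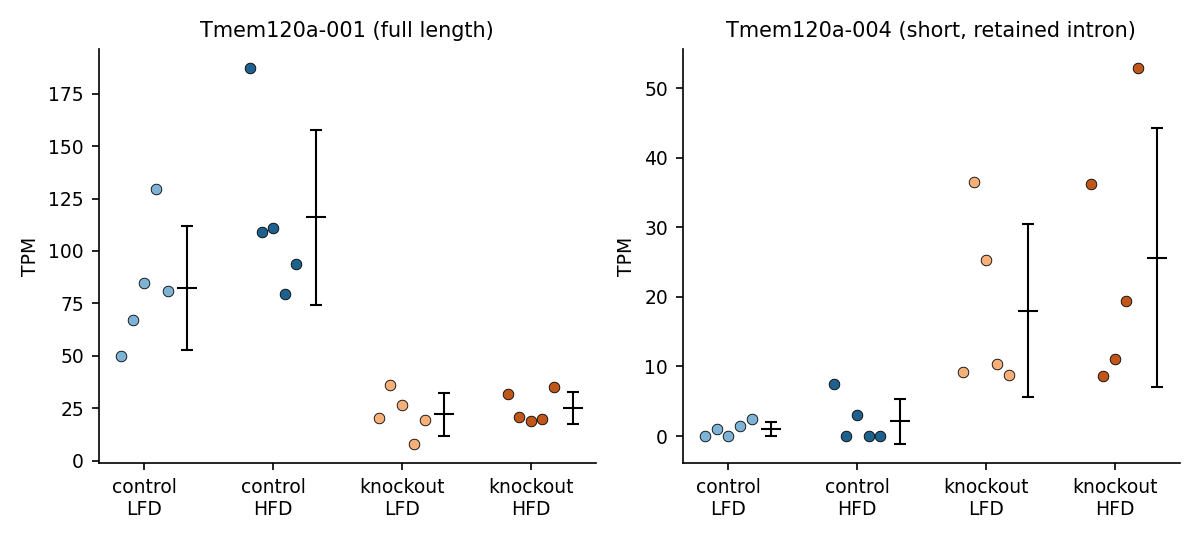
TPM of *Tmem120a*-001 and *Tmem120a*-004 (y axes) in each of 20 libraries, by group (x axis, points), with the group mean and SD (bar, n = 5). TPM assigned to the full-length transcript lay between 7.75 and 36.2 in the knockout and between 49.8 and 187 in the control libraries. TPM assigned to the short transcript lay between 8.70 and 52.9 in the knockout and between 0 and 7.51 in the control libraries.

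The short transcript *Tmem120a*-004 moved the other way. Control libraries on LFD held 0, 1.06, 0, 1.39 and 2.39 TPM, against 9.16, 36.5, 25.3, 10.4 and 8.77 TPM in knockout libraries. Control libraries on HFD held 7.51, 0, 3.03, 0 and 0 TPM, against 36.2, 8.70, 11.04, 19.4 and 52.9 TPM in knockout libraries. All 5 knockout libraries lay above all 5 control libraries on each diet, although on HFD the lowest knockout library (8.70 TPM) was close to the highest control library (7.51 TPM). The difference in log2(TPM + 1) was 3.21 on LFD and 3.42 on HFD (exact permutation test, p = 0.00794 on each diet), and 3.31 over both diets (exact permutation test, p = 3.15e-05). Of the transcripts tested, 0.936% were higher in all knockout libraries on LFD and 0.429% on HFD. The level of *Tmem120a*-004 was known when it was chosen.

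The shares of the gene's TPM that Salmon assigned to these transcripts differed between genotypes. *Tmem120a*-004 shares 591 bases with *Tmem120a*-001, so the shares depend on how reads of the shared exons were divided. Whether the RNA itself changed in make-up was not tested. *Tmem120a*-001 took between 86.1% and 98.7% of the summed TPM of *Tmem120a* in control mice on LFD and at least 95.2% in those on HFD. In knockout mice it took between 36.0% and 68.4% on LFD and between 39.0% and 70.5% on HFD. *Tmem120a*-004 took 41.3% ± 9.63 (SD, n = 5) of the gene in knockout mice on LFD and 45.3% ± 11.9 (SD, n = 5) on HFD, against 1.10% ± 1.20 and 1.30% ± 1.83 (SD, n = 5) in the control mice. The difference in its share was 40.2 percentage points on LFD and 44.0 on HFD (exact permutation test, p = 0.00794 on each diet). *Tmem120a*-002 was at 0 in 18 of 20 libraries and reached 1.50 TPM at most. *Tmem120a*-003, which holds both floxed exons, had a median of 0.704 TPM over all 20 libraries and was highest in control LFD replicate 1, at 8.05 TPM.

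**Figure D2:**
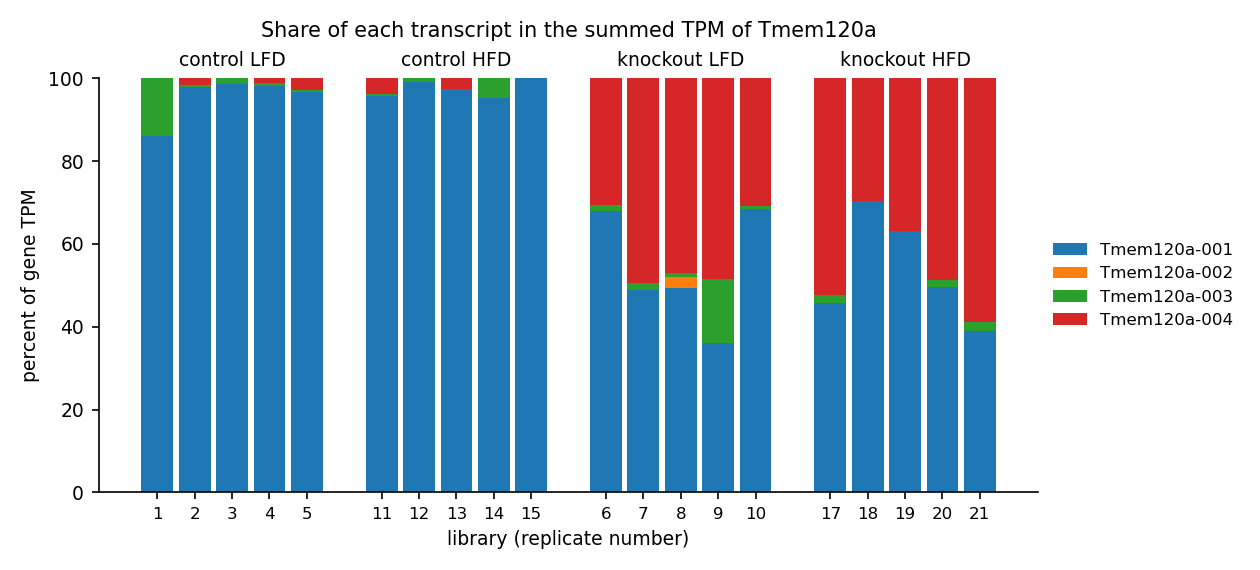
Share of each annotated transcript in the summed TPM of *Tmem120a* (y axis, percent) in each library (x axis, replicate number), grouped by genotype and diet. *Tmem120a*-004 took between 29.5% and 59.0% in the 10 knockout libraries and at most 3.84% in the 10 control libraries.

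The summed gene differed by less than its full-length transcript between genotypes. On LFD the gene sum was 85.4 ± 28.4 TPM in control mice (SD, n = 5), and the knockout mean of 41.5 ± 21.9 TPM (SD, n = 5) was 48.6% of it. On HFD the knockout mean was 43.3% of the control mean. The order of the group means was control HFD, control LFD, knockout HFD and knockout LFD, and each neighbouring pair of groups overlapped. With edgeR's quasi-likelihood test on summed estimated counts (TMM scaling, a call at a Benjamini-Hochberg adjusted p under 0.1), the log2 fold change of *Tmem120a* was -1.67 on HFD (SE 0.291, adjusted p = 0.1729) and -1.61 on LFD (SE 0.343, adjusted p = 0.9293). Neither was a call, in comparisons where 0.00657% and 0.00636% of genes were called. The gene ranked 6 by p on each diet. With both diets in one fit *Tmem120a* was called at -1.64 (SE 0.237, adjusted p = 0.004522, edgeR), where 0.0385% of genes were called. DESeq2, which the methods of the study name, called *Tmem120a* on HFD (log2 fold change -1.67, adjusted p = 3.23e-06) and on LFD (-1.60, adjusted p = 0.0025), with 0.65% and 0.108% of genes called. Over both diets edgeR with offsets for mean transcript length gave -1.21 (adjusted p = 0.1336), which is no call.

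The same test was run on single transcripts. Of the 12 transcripts of both genes, 7 were tested on HFD and 8 on LFD, and edgeR called none of them, where 0% and 0.00281% of all transcripts were called. With an unadjusted p under 0.05 there was 1 on HFD and there were 2 on LFD, beside 2.95% and 3.29% of all transcripts tested. Over both diets 8 were tested and 1, *Tmem120a*-001, was called, at a log2 fold change of -2.16 (SE 0.263, adjusted p = 0.0013, edgeR), with 0.0142% of transcripts called. For *Tmem120a*-004 the fitted value over both diets was 3.85 (SE 1.16, adjusted p = 1, unadjusted p = 0.00364). Its coefficient of variation in knockout mice was 68.9% on LFD and 72.7% on HFD, against 47.2% and 29.9% for *Tmem120a*-001.

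No difference of *Tmem120a* between diets passed its test with all libraries. In control mice the gene sum was 119 ± 44.5 TPM on HFD beside the 85.4 TPM on LFD (SD, n = 5), a difference in log2(TPM + 1) of 0.47 (exact permutation test, p = 0.159). Without control LFD replicate 4, at 132 TPM the highest of its group, the difference was 0.64 (exact permutation test, p = 0.0476). In knockout mice the diet difference was 0.31 (exact permutation test, p = 0.532). With edgeR the diet fold changes of *Tmem120a* were 0.25 in control mice (SE 0.287, adjusted p = 0.685) and 0.20 in knockout mice (SE 0.327, adjusted p = 0.8122). This stood against 9.32% and 9.4% of genes called between diets. The genotype effect on HFD minus that on LFD was -0.07 (SE 0.474, adjusted p = 0.9999, edgeR), in a test that called 0% of genes (0 of 15574 at an adjusted p under 0.1, and 560 at an unadjusted p under 0.05). DESeq2 called 14 genes there. By transcript, edgeR called 0 of 7 members between diets in control and 0 of 8 in knockout mice (0 in either at an unadjusted p under 0.05), where 1.39% and 1.06% of transcripts were called. An unadjusted p under 0.05 was found for 11.4% of all transcripts in control and 10.2% in knockout mice. Of 8 members tested for a genotype effect that differs between diets, 0 were called (0 at an unadjusted p under 0.05). Of all transcripts 0% were called there and 3.07% had an unadjusted p under 0.05.

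No difference of the summed *Tmem120b* gene between genotypes was detected. Control libraries on LFD held 26.6, 46.1, 44.3, 71.8 and 38.0 TPM of the gene, against 41.5, 91.7, 56.5, 37.5 and 35.7 TPM in knockout libraries. Control libraries on HFD held 57.1, 32.3, 32.7, 28.4 and 39.3 TPM, against 43.4, 20.5, 30.9, 23.4 and 51.5 TPM in knockout libraries. The groups overlapped widely on both diets. The difference in log2(TPM + 1), knockout minus control, was 0.19 on LFD (exact permutation test, p = 0.603) and -0.20 on HFD (exact permutation test, p = 0.5). With edgeR the log2 fold change of *Tmem120b* was -0.00 on LFD (SE 0.381, adjusted p = 0.999) and -0.17 on HFD (SE 0.296, adjusted p = 0.9993), so a change of a log2 unit in either direction lay over 2 SE from each value. Between diets the gene was lower on HFD in both genotypes without passing the test, with log2 fold changes of -0.43 in control mice (SE 0.341, adjusted p = 0.5279, edgeR) and -0.59 in knockout mice (SE 0.332, adjusted p = 0.3643, edgeR).

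Most of the *Tmem120b* RNA was assigned to *Tmem120b*-002 (ENSMUST00000111619, 1256 bases), a coding transcript without exon 3. The exon it lacks has the length of the floxed exon 3 of *Tmem120a* and encodes 39 codons, shown above, and its loss keeps the reading frame. *Tmem120b*-002 took between 54.4% and 81.6% of the gene's TPM over all libraries. Control libraries on LFD held 18.3, 31.6, 28.6, 40.4 and 26.3 TPM of it, against 24.0, 52.7, 33.1, 23.1 and 24.6 TPM in knockout libraries. Control libraries on HFD held 31.1, 23.3, 22.4, 21.8 and 26.7 TPM, against 27.1, 16.7, 25.2, 16.3 and 32.3 TPM in knockout libraries. The groups overlapped on both diets, and on LFD the lowest control library lay below and the highest knockout library above all others. Genotype differences were 0.09 on LFD and -0.12 on HFD in log2(TPM + 1) (exact permutation tests, p = 0.77 and p = 0.579). The transcript with exon 3, *Tmem120b*-001 (2164 bases), had 9.78 ± 7.22 TPM over all libraries (SD, n = 20) and took between 9.27% and 37.5% of the gene. Its share was 18.6% in knockout and 21.1% in control mice on LFD, and 21.9% and 22.9% on HFD (exact permutation tests, p = 0.659 and p = 0.865).

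**Figure D3:**
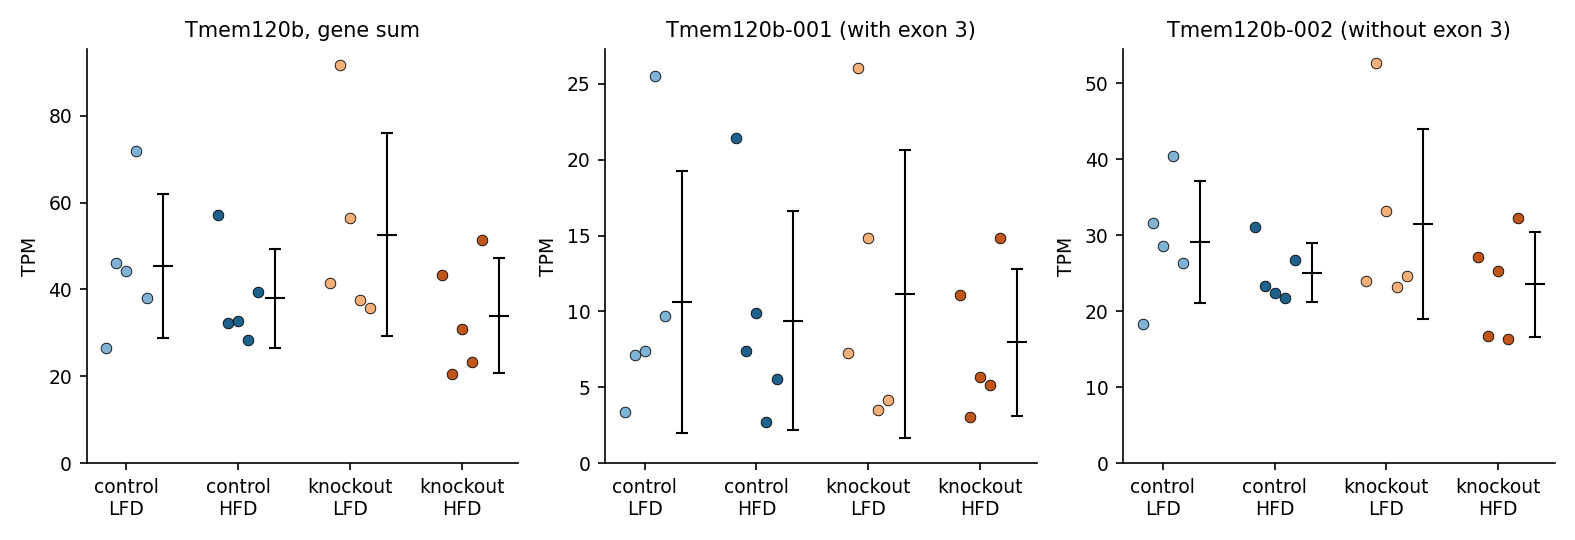
TPM (y axes) of the *Tmem120b* gene sum and of its transcripts with and without exon 3 in each library, by group (x axis, points), with the group mean and SD (bar, n = 5). The groups overlap in all panels, and *Tmem120b*-002 lies above *Tmem120b*-001 in every library.

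The other 6 transcripts of *Tmem120b* were low, with means between 0.149 and 2.73 TPM over all libraries. The highest of them, the retained intron model *Tmem120b*-005 (ENSMUST00000160489), was singled out after its values were seen. In knockout mice it had 4.38, 7.49, 3.14, 9.36 and 4.03 TPM on LFD and 1.36, 0, 0, 0 and 2.19 TPM on HFD, so the diets did not overlap. Of the transcripts tested between diets in knockout mice, 2.42% were lower in all HFD than in all LFD libraries. The difference in log2(TPM + 1) was -2.07 (exact permutation test, p = 0.00794). In control mice it was -0.16 (exact permutation test, p = 0.905), and the genotype effect on HFD minus that on LFD was -1.91 (exact permutation test, p = 0.0602). edgeR gave no call between diets in knockout mice (log2 fold change -2.99, SE 1.72, adjusted p = 0.6785). A second retained intron model, *Tmem120b*-003 (ENSMUST00000162104), was also singled out after its values were seen, since of the 8 transcripts of *Tmem120b* it was the only one with p under 0.05 in the exact tests between genotypes. On LFD it had 0.911, 0.632, 0.282, 0.494 and 0.347 TPM in control and 1.57, 1.83, 0.412, 1.54 and 1.38 TPM in knockout mice, so that 4 of 5 knockout libraries lay above all control libraries. The difference in log2(TPM + 1) was 0.59 on LFD (exact permutation test, p = 0.0317, not adjusted over transcripts) and -0.02 on HFD (exact permutation test, p = 0.952), and the effect on HFD minus that on LFD was -0.61 (exact permutation test, p = 0.0759). With edgeR *Tmem120b*-003 was no call on LFD (log2 fold change 1.18, SE 0.538, adjusted p = 1). Between diets in knockout mice it was lower on HFD by the exact permutation test (difference -0.85, p = 0.0238) and no call with edgeR (log2 fold change -2.30, SE 1.18, adjusted p = 0.587).

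The ratio of the paralogs within a library, which does not depend on scaling between libraries, was compared after the values were seen. *Tmem120b* over *Tmem120a* lay between 0.455 and 0.676 in control mice on LFD and between 0.287 and 0.420 on HFD. In knockout mice it lay between 1.05 and 1.75 on LFD and between 0.574 and 1.03 on HFD. *Tmem120b* thus exceeded *Tmem120a* in 0 of 10 control libraries, in all 5 knockout libraries on LFD and in 1 of 5 on HFD. The log2 ratio was higher in knockout mice by 1.30 on LFD and by 1.07 on HFD (exact permutation tests, p = 0.00794 each). It was also lower on HFD than on LFD in both genotypes, with a difference of -0.69 in control and -0.92 in knockout mice (exact permutation tests, p = 0.00794 each), although neither gene alone passed a test between diets. Between the diets, the genotype effect on the ratio differed by -0.23 (exact permutation test, p = 0.712).

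**Figure D4:**
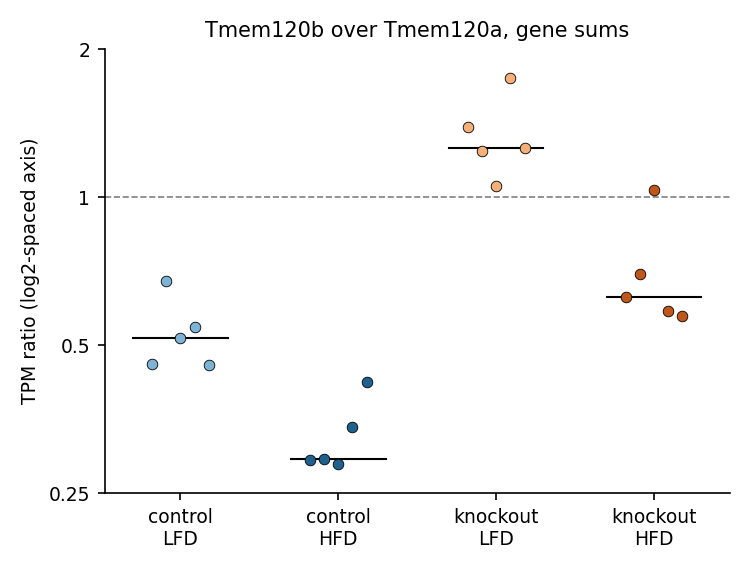
Ratio of the summed TPM of *Tmem120b* to that of *Tmem120a* (y axis, log2-spaced) in each library, by group (x axis, points), with the group median (line, n = 5) and a dashed line at 1. The ratio lies below 1 in all control libraries, and within each genotype no LFD library overlaps with the HFD libraries.

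Content of adipocytes was read from a score, the mean log2(TPM + 1) of 25 genes of white adipocytes that leaves out *Adipoq*. All 25 were expressed, and none was at 0 in all libraries of any group. The score was 7.80 ± 0.210 in control and 7.61 ± 0.397 in knockout mice on LFD, and 8.03 ± 0.386 and 7.90 ± 0.358 on HFD (SD, n = 5). Knockout minus control was -0.20 on LFD and -0.13 on HFD (exact permutation tests, p = 0.373 and p = 0.579). By gene, 2 of the 25 had a positive log2 fold change on LFD and 5 on HFD, beside 47.2% and 51.3% of all genes tested. None was called by edgeR, where 0.00636% of all genes on LFD and 0.00657% on HFD were called. The list's median was -0.30 and -0.19 beside -0.02 and 0.01 over all genes tested. In RNA of whole tissue, fewer cells of a type and less RNA per cell cannot be told apart.

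*Tmem120a* followed the adipocyte score in both genotypes. Over the 10 control libraries its log2(TPM + 1) had r = 0.933 and rho = 0.939 with the score (permutation tests, adjusted p = 0.00304 and p = 0.00576, Benjamini-Hochberg over 64 relations computed). Over the 10 knockout libraries it had r = 0.948 and rho = 0.952 (permutation tests, adjusted p = 0.00192 and p = 0.00576). Without the 2 libraries farthest from the median score, r was 0.810 in control and 0.933 in knockout mice. As deviations from the diet means, r was 0.929 and 0.957 (permutation within diet, adjusted p = 0.00789 each). The points of each relation share a library, its depth and its scaling.

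In knockout mice both *Tmem120a*-001 and *Tmem120a*-004 rose with this score. *Tmem120a*-001 had r = 0.913 and *Tmem120a*-004 had r = 0.883 over the 10 knockout libraries (permutation tests, adjusted p = 0.00304 and p = 0.00563), with rho = 0.794 and rho = 0.891 (permutation tests, adjusted p = 0.097 and p = 0.0186). Knockout replicates 7, 8, 17 and 21 were the 4 highest knockout libraries for each of *Tmem120a*-001, *Tmem120a*-004, *Tmem120b*-001, *Tmem120b*-002 and the adipocyte score. In control mice *Tmem120a*-001 had r = 0.917 and *Tmem120a*-004 had r = 0.824 (permutation tests, adjusted p = 0.00304 and p = 0.029), the latter with 5 of 10 libraries at 0 and r = 0.580 without the 2 farthest libraries. *Tmem120b* had r = 0.562 in control and r = 0.507 in knockout mice (permutation tests, adjusted p = 0.362 and p = 0.437), but r = 0.912 in knockout mice once the diet means were removed (permutation within diet, adjusted p = 0.00986). With the summed TPM of the adipocyte list as score, the r of *Tmem120a* fell to 0.783 in control and 0.499 in knockout mice (permutation tests, adjusted p = 0.0587 and p = 0.458), and neither passed the test. Those of *Tmem120a*-001 and *Tmem120a*-004 in knockout mice fell to 0.477 each and did not pass it either (permutation tests, adjusted p = 0.495 and p = 0.489).

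**Figure D5:**
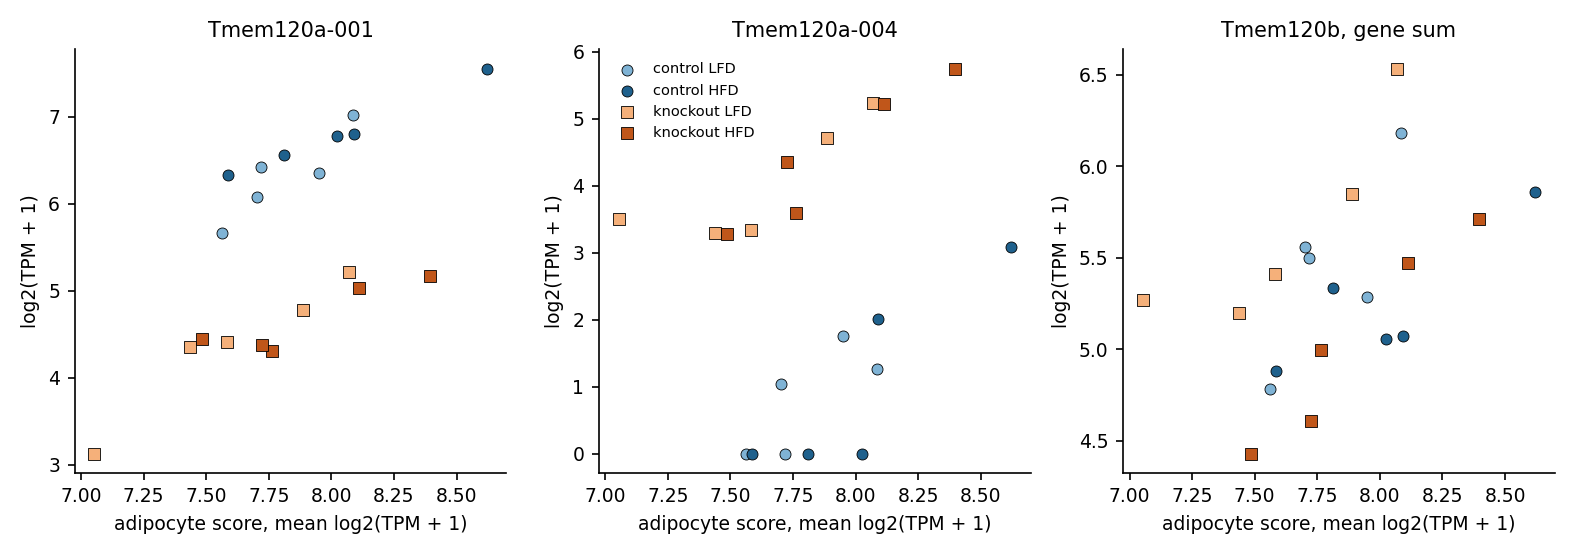
log2(TPM + 1) of *Tmem120a*-001, *Tmem120a*-004 and the *Tmem120b* gene sum (y axes) against the adipocyte score, the mean log2(TPM + 1) of 25 genes (x axes), with 1 point per library, circles for control and squares for knockout mice. *Tmem120a*-001 rises along separate lines in both genotypes (r = 0.917 over 10 control and 0.913 over 10 knockout libraries).

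Other cell types were scored in the same way. The macrophage score also rose with *Tmem120a* in knockout mice (r = 0.864, rho = 0.794, permutation tests, adjusted p = 0.0141 and p = 0.097), and the adipocyte and macrophage scores themselves had r = 0.870 over these 10 libraries. The endothelium score had r = 0.713 and rho = 0.697 with *Tmem120a* there (permutation tests, adjusted p = 0.0913 and p = 0.195). Its r with the adipocyte score was 0.821, so these scores varied together in knockout mice. Of the 64 relations, 9 passed an adjusted p of 0.05 by Pearson's r: 6 of *Tmem120a* or its transcripts with adipocytes and 3 with macrophages in knockout mice. The score of muscle fibres differed between genotypes on HFD, where their 10 genes summed to between 7.79 and 52.7 TPM in control and between 42.0 and 1457 TPM in knockout mice (exact permutation test of the score, p = 0.0159). On LFD the sums overlapped, at 8.85 to 3321 TPM in control and 14.2 to 1053 TPM in knockout mice. The list's median log2 fold change, knockout against control, was 5.35 on HFD and -0.84 on LFD (edgeR). On either diet edgeR called 0 of the 10 genes (lowest adjusted p = 0.161 on HFD and 0.929 on LFD). Among all genes 0.00657% were called on HFD and 0.00636% on LFD. At an unadjusted p under 0.05 there were 10 fibre genes on HFD and 0 on LFD, beside 4.66% and 5.11% of all genes. For a genotype effect that differs between diets, 0 of 10 were called (lowest adjusted p = 0.9999, edgeR), with 9 at an unadjusted p under 0.05. No fibre gene was at 0 in all libraries of a group. *Tmem120a*-001 and *Tmem120a*-004 had r = -0.230 and r = -0.096 with the fibre score over the knockout libraries (permutation tests, adjusted p = 0.969 each).

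Relative to the adipocyte genes, *Tmem120a* was also lower in the knockout. Its log2(TPM + 1) less the adipocyte score differed, knockout minus control, by -0.91 on LFD and by -1.14 on HFD (exact permutation tests, p = 0.00794 each). For *Tmem120a*-001 the values were -1.73 and -2.01 (exact permutation tests, p = 0.00794 each), and for *Tmem120a*-004 3.40 and 3.55 (exact permutation tests, p = 0.00794 each). *Tmem120b* relative to the score had genotype differences of 0.39 on LFD (exact permutation test, p = 0.119) and -0.07 on HFD (exact permutation test, p = 0.619). In knockout mice *Tmem120b* relative to the score was lower on HFD than on LFD, with a difference of -0.90 (exact permutation test, p = 0.00794). The mean score itself was higher on HFD there (7.90 against 7.61 on LFD), which enters this difference. Without the score, the diet difference of *Tmem120b* in knockout mice was -0.61 (exact permutation test, p = 0.135). In control mice the diet difference was -0.45 (exact permutation test, p = 0.0556). The genotype effect on HFD minus that on LFD was -0.45 (exact permutation test, p = 0.0963).

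The genes nearest to both members were measured too. *Por*, cytochrome P450 reductase, lies 159 bases from *Tmem120a* on the opposite strand. Group means of *Por* were 152 TPM for control and 147 TPM for knockout mice on LFD, and 165 and 143 TPM on HFD. Its log2 fold changes were -0.18 on LFD (adjusted p = 0.9334, edgeR) and -0.20 on HFD (adjusted p = 0.9993, edgeR). *Mdh2*, mitochondrial malate dehydrogenase, 34209 bases away, had log2 fold changes of -0.34 on LFD (adjusted p = 0.9334, edgeR) and -0.07 on HFD (adjusted p = 0.9993, edgeR). Of the 9 gene models within 100 kb of *Tmem120a* and the 10 within 100 kb of *Tmem120b*, 11 were tested on HFD and 10 on LFD, and edgeR called 0 between genotypes, beside the 0.00657% and 0.00636% of all genes called. With an unadjusted p under 0.05 there were 0 on HFD and 1 on LFD, *Setd1b*, beside 4.66% and 5.11% of all genes. Between diets 2 of 10 neighbours were called in control and 2 of 10 in knockout mice, beside 9.32% and 9.4% of all genes. *Setd1b*, a histone H3 lysine 4 methyltransferase gene near *Tmem120b*, fell on HFD in control (log2 fold change -1.39, adjusted p = 0.00604, edgeR) and knockout mice (-1.84, adjusted p = 0.000438, edgeR). *Rhbdd2*, near *Tmem120a*, was called between diets in knockout mice (log2 fold change -0.56, adjusted p = 0.0892, edgeR), and *AI480526*, near *Tmem120b*, in control mice (-0.60, adjusted p = 0.0433, edgeR). In the other genotype both had the same direction without a call. *Rhbdd2* was at -0.49 in control (adjusted p = 0.3433, edgeR) and *AI480526* at -0.33 in knockout mice (adjusted p = 0.4441, edgeR). For a genotype effect that differs between diets, 0 of 10 neighbours were called (0 at an unadjusted p under 0.05).

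Gene families related to the members by place or fold were tested from lists. Among 19 nuclear envelope genes, 0 of 19 were called between genotypes on either diet by edgeR, beside 0.00636% of all genes on LFD and 0.00657% on HFD. With an unadjusted p under 0.05 there was 1 on each diet, where 5.11% of all genes on LFD and 4.66% on HFD had one. The list's median log2 fold change was -0.05 on LFD and -0.03 on HFD, beside -0.02 and 0.01 over all genes tested. On LFD the mean of lamin A/C (*Lmna*) was 22.5 TPM for control and 21.8 TPM for knockout mice, and that of emerin (*Emd*) was 17.8 and 17.3 TPM. Between diets 1 nuclear envelope gene of 18 tested in control and 1 of 19 in knockout mice was called, beside 9.32% and 9.4% of all genes. This gene, *Syne1*, which encodes the outer membrane protein nesprin-1, fell on HFD in control (log2 fold change -0.54, SE 0.166, adjusted p = 0.0864, edgeR) and knockout mice (-0.71, SE 0.114, adjusted p = 0.0051, edgeR). Among the 7 fatty acid elongases, 6 were tested and 0 were called between genotypes (0 on either diet at an unadjusted p under 0.05). Between diets 2 of 6 were called in control and 1 of 6 in knockout mice, all lower on HFD. *Elovl6*, which elongates long-chain saturated fatty acids, fell on HFD from 232 to 37.2 TPM in control (log2 fold change -2.84, adjusted p = 0.00464, edgeR) and from 249 to 49.7 TPM in knockout mice (-2.41, adjusted p = 0.00252, edgeR). *Elovl3*, an elongase of very long-chain fatty acids, fell in control mice from 3.95 to 0.366 TPM (log2 fold change -3.72, SE 1.12, adjusted p = 0.0814, edgeR), and had means of 1.79 TPM on LFD and 1.51 TPM on HFD in knockout mice (-0.26, SE 0.792, adjusted p = 0.912, edgeR). For a genotype effect that differs between diets, 0 of the 6 elongases were called (lowest adjusted p = 0.9999, edgeR). At an unadjusted p under 0.05 there was 1 elongase, beside 3.6% of all genes. A diet response that differs between genotypes was thus not detected for this list.

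Genes whose levels ran most like those of the members were found by Pearson's r of log2(TPM + 1) over the 10 control libraries, among 13763 other genes that averaged 1 TPM or more there. For *Tmem120a* they were *Slc36a2* (r = 0.984), an amino acid transporter, *Tmem66* (r = 0.976), *Tysnd1* (r = 0.975), a peroxisomal protease, *Tmem205* (r = 0.972) and *Fam195b* (r = 0.972). Over the 10 knockout libraries, which the choice did not use, these genes had r between 0.847 and 0.919 with *Tmem120a*. For *Tmem120b* they were *Coq3* (r = 0.965), an enzyme of ubiquinone synthesis, *Ccbl1* (r = 0.955), *Fam73b* (r = 0.953), *Rps14* (r = 0.952), a ribosomal protein, and *1810014F10Rik* (r = 0.947), and in knockout mice r lay between 0.353 and 0.763. The paralogs had r = 0.596 with each other in control and r = 0.635 in knockout mice. Among the 13763 genes, the control value put *Tmem120b* at percentile 79.7 of likeness to *Tmem120a*. It put *Tmem120a* at percentile 88.3 of likeness to *Tmem120b*.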

How the data were processed

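Per the labels and the study's methods, the authors quantified the read pairs with Salmon 0.13.1 on Ensembl transcripts of NCBIM37 (mm9). STAR 2.5.3 is also named. The estimated counts were deposited by the authors without normalization between libraries, and the TPM values were deposited as Salmon scales them. The strand setting is not given in the sources used here, so reads of *Tmem120b* and of genes that overlap it on the opposite strand may not be told apart. Replicates are single mice.

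Transcripts were summed per gene with GENCODE vM1, which held 97.7% of them (0.377% to 0.581% of counts were unmatched). Sums rounded to whole numbers were tested with edgeR 4.0.16 (quasi-likelihood, TMM) for genes or transcripts with a mean of at least 0.5 TPM, with a call at an adjusted p under 0.1. SE is the log2 fold change over the square root of F. Single values were compared on log2(TPM + 1) by two-sided exact permutation tests (threshold 0.05), and correlations by permutation with 100000 resamples. DESeq2 1.42.0 and limma 3.58.1 (R 4.3.3) were alternatives. The fits were tested on simulated data. The members and lists were chosen with earlier results of these data known. The genes named are the members, genes within 100 kb, list members, and the 5 genes most like each member. The labels give no batch. Estimated counts behind *Tmem120a* lay between 954 and 15572 per library, and those behind *Tmem120b* between 1707 and 8790. How Salmon divides reads between *Tmem120a*-001 and *Tmem120a*-004, which share 591 bases, sets their levels.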

Additional observations from a re-analysis of the deposited data

Results flagged for a closer look

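In groups of 5 libraries, 2 values stood apart from the rest of their group by Dixon's criterion, among 28 groups looked at, of which chance flags about 5%. *Tmem120a* was at 196 TPM in control HFD replicate 11, against 83.3 to 114 TPM in the other 4 control libraries on HFD, and that library also had the highest adipocyte score of all 20 (8.62). *Tmem120b*-001 was at 25.5 TPM in control LFD replicate 4, against 3.38 to 9.67 TPM in the other 4 control libraries on LFD.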

How the results depend on the processing

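No paired analysis was run. Per the paper the controls were littermates, but the sample labels name no litter. No replicate number occurs in more than 1 group. The genotype differences of *Tmem120a*-001, of *Tmem120a*-004 and of the paralog ratio on LFD, on HFD and over both diets kept their direction and stayed past the threshold of 0.05 under each alternative run (another pseudocount, each library left out in turn and, for the transcripts, TPM rescaled by TMM). The edgeR call of *Tmem120a* depended on the fit. On HFD, DESeq2 (-1.67), the newer quasi-likelihood method (-1.67) and no filter on low values (-1.68) gave a call, as did leaving out knockout HFD replicate 21 (range over libraries left out -1.85 to -1.42). On LFD, DESeq2 (-1.60) gave a call. Over both diets, length offsets (-1.21) and limma on log2(TPM + 1) (-1.19) lost it. In the exact test on LFD the p of *Tmem120a* rose to 0.0635 without control LFD replicate 3, 4 or 5 (range of the difference -1.35 to -0.92), and its diet difference in control mice passed only without control LFD replicate 4 (range 0.27 to 0.64), as did that of *Tmem120a*-001 (0.31 to 0.68).

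Values near 0 that passed no test changed sign. *Tmem120b* on LFD was 0.0025 with RLE factors, 0.0025 with DESeq2, 0.077 with length offsets and 0.19 with limma. With a library left out, its fitted log2 fold change ran from -0.34 to 0.39 on LFD, from -0.35 to 0.10 on HFD and from -0.24 to 0.086 over both diets, and its diet by genotype difference from -0.57 to 0.14, while that of *Tmem120a* ran from -0.33 to 0.18. In the exact tests, the ranges were -0.033 to 0.37 (*Tmem120b*, LFD), -0.11 to 0.086 (*Tmem120b*, both diets), -0.39 to 0.084 (*Tmem120a*, diet by genotype), -0.026 to 0.50 (*Tmem120a*-001, diets in knockout mice), -0.31 to 0.46 (*Tmem120a*-004, diets in control mice) and -0.12 to 0.73 (*Tmem120a*-004, diet by genotype). For *Tmem120b*-001 they were -0.44 to 0.21 on HFD, -0.38 to 0.36 on LFD, -0.26 to 0.11 over both diets, -0.49 to 0.21 and -0.55 to 0.10 between diets in control and knockout mice, and -0.48 to 0.25 for diet by genotype. For *Tmem120b*-002 they were -0.11 to 0.21 on LFD and -0.12 to 0.045 over both diets. *Tmem120a*-004 between diets in control mice was -0.17 with a pseudocount of 0.1 TPM.

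The relation to adipocyte content depended on the score. With summed TPM, r was 0.783, 0.747 and 0.487 in control mice and 0.499, 0.477 and 0.477 in knockout mice for *Tmem120a*, *Tmem120a*-001 and *Tmem120a*-004, and -0.068 for *Tmem120b* in knockout mice, none of them past the threshold. Without the 2 farthest libraries the control relations (0.810, 0.813 and 0.580) no longer passed with 8 libraries. Removing the diet means brought *Tmem120b* in knockout mice past it (0.912). Relative to summed adipocyte genes, the diet differences in knockout mice turned to -0.21 for *Tmem120a* and -0.097 for *Tmem120a*-004. The cause of these changes was not tested.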
